A study of Mus musculus with 22 samples.

Results

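Plasma cells were taken as barcodes with at least 200 detected genes and at most 25% mitochondrial counts that held at least 3 unique molecules (UMIs) of Jchain, at least 1 UMI in at least 2 of Xbp1, Mzb1, Sdc1, Derl3, Prdm1 and Tnfrsf17, and 0 UMIs of the T cell gene Cd3e and the macrophage gene C1qa. The rule kept 951 of 95843 barcodes that passed the gene and mitochondrial limits, out of 179929 in all. The cells were thus chosen by their measured UMIs of these genes, so the levels of the rule's genes in these cells are a description. Rule genes entered the fits over all genes below, except Jchain in the comparison of antibody classes, but no test of a single rule gene is given. The libraries were droplet 3′ RNA profiles from mice carrying Prom1-CreERT2 and Rosa26ZSG, a tamoxifen-inducible Cre under the Prom1 promoter with a ZsGreen reporter at Rosa26, on a background that was Nalcn-wt, Nalcn-het or Nalcn-null. Nalcn encodes a sodium leak channel, and in the Cre design a cell that has not recombined keeps its floxed copies, so the genotype of a mouse is not the genotype of each plasma cell.

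Of 22 libraries, 11 held pooled and hashtagged kidney, liver, lung and stomach with epididymis in males or uterus in females, 10 held ZsGreen-positive cells sorted from the blood of mice without tumours (ntCZC), and 1 held blood mononuclear cells (PBMC). The tissue and ntCZC mice were 551 to 654 days old and the PBMC mouse 120 days. The tissue libraries were 5 of wt, 2 of het and 2 of null genotype, while in 2 others the title and the strain named different genotypes, so these entered no genotype comparison. The hashtags were not used here, so no plasma cell has an organ of origin. Total UMIs ran from 8571019 to 139793927 in tissue libraries and from 161541 to 2600526 in ntCZC libraries. Labels named no animals, so p-values measure only the spread between libraries. Nalcn itself could not check the genotypes, because tissue libraries held 0 to 15 Nalcn UMIs over all passing barcodes and 0 in plasma cells. Null 3, labelled female, held Xist at 1318 CPM (counts scaled to a sum of 1e6 per library) together with Y-linked transcripts at 43.0 CPM, against 184 to 222 CPM of Y-linked transcripts in male tissue libraries and at most 0.0728 CPM in the other female ones.

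Plasma cells are the end stage of the B cell lineage and secrete antibody. Their endoplasmic reticulum (ER) expands under Xbp1, a transcription factor of the unfolded protein response, and Prdm1 (Blimp-1) shuts off the B cell programme. IgA, joined into dimers by the J chain that Jchain encodes, is the class sent across mucosal surfaces such as the gut and airway lining, IgM is the class made before switching, and IgG is the main class of serum.

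Tissue libraries held 928 of the 951 plasma cells, and also 93055 of the 95843 passing barcodes. Their share of passing barcodes was 0.997% (95% exact binomial interval 0.934 to 1.06%). Intervals here cover counting error only. In wt libraries 1 to 5 the share was 0.202%, 1.18%, 0.821%, 3.52% and 1.05%, from 12, 216, 46, 460 and 3 cells. The het libraries held 0.480% and 0.296%, from 36 and 12 cells. Null 2 held 0.195% and null 3 held 0.673%, from 17 and 63 cells. The libraries without a group held 0.254% and 0.326%, from 11 and 52 cells. Wt 4 thus gave the highest tissue share and 460 of the 951 cells, and wt 5, with 3 cells, was too small for any expression level. In blood, 9 of the 10 ntCZC libraries held 0 of 1948 passing barcodes, which allows a pooled share of up to 0.154% (3 counts over these barcodes). Single libraries allow more, up to 27.3% in ntCZC wt 3 with its 11 passing barcodes. The PBMC library held 1, and ntCZC het 3 held 22 of 161.

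**Figure D1:**
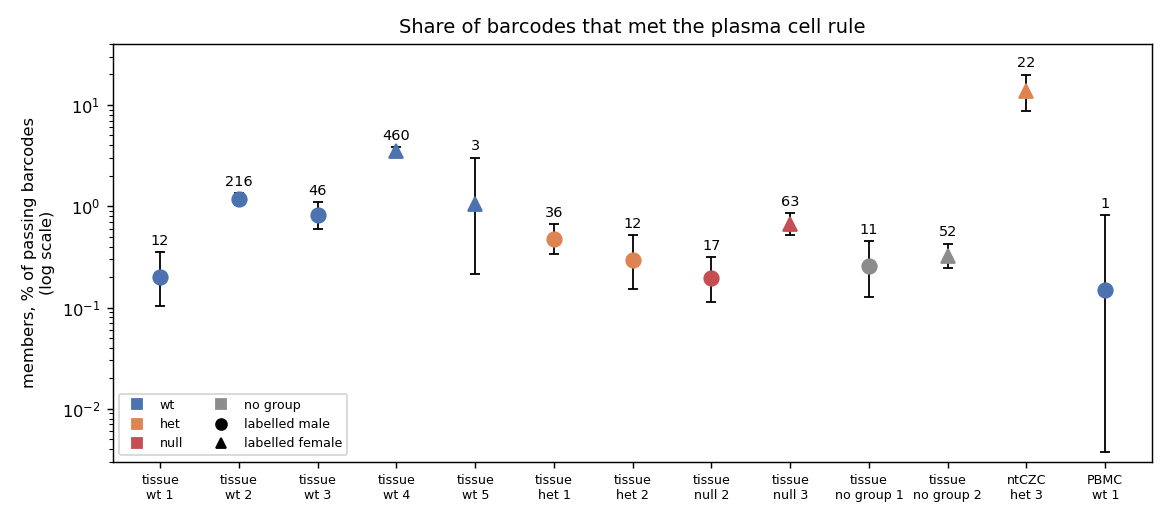
Share of passing barcodes that met the plasma cell rule (log axis, percent) in the 13 libraries that held any, with 95% exact binomial intervals. The number of such cells is above each point, with colour for genotype and marker shape for labelled sex. Wt 4 is the highest tissue library at 3.52%. The ntCZC het 3 library stands above every tissue library at 13.7%, from 22 cells that went against the label, with a median immunoglobulin content of 2.15%.

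The label was checked with a measure the rule did not use, the percentage of a cell's UMIs that came from the 392 immunoglobulin genes. In tissue, 818 of 928 cells had at least 10% immunoglobulin, with a median of 38.2% and 4348 UMIs per cell. The other 110 had a median of 1.09% and 7234.5 UMIs. The low group also differed in its genes. UMIs of Ms4a1 (CD20, a surface protein that plasma cells lose) were found in 73.6% of them and 27.6% of the high group, and at least 2 UMIs of cycling genes in 79.1% and 24.1%. These are detection rates, which rise with depth, and were not matched for depth between the groups. Pooled Mki67, a proliferation marker, stood at 411 CPM in the low group against 85.5 CPM in the high group. Rgs13, a germinal centre gene, was at 113 CPM against 4.70 CPM. Prg2, a secretory granule protein, went the other way, at 4.38 CPM against 318 CPM. Epithelial RNA differed by kind. Sftpc, a surfactant protein of the lung, was at 380 CPM in the low group and 26.3 CPM in the high group, and Krt19, a keratin, at 173 and 17.1 CPM, while the stomach gene Tff1 was at 63.5 and 107 CPM and the epididymal gene Gpx5 at 98.5 and 198 CPM. Sftpc was at 610 CPM in the low cells of wt 2 and 4.65 CPM in those of wt 4, and its source was not tested. Of the 110 low cells, 58 came from wt 2 and 33 from wt 4, and 34 tissue cells lay between 8 and 12%. Some genes of secretion went with the label. Hsp90b1, an ER chaperone, was at 2358 CPM in the low cells, against 525 CPM in the tissue B cells described below. Edem1, of ER quality control, was at 170 against 61.2 CPM. In the low cells of wt 2 and wt 4, Hsp90b1 was at 565 and 2932 CPM. By immunoglobulin content, Ms4a1 and cycling genes these 110 cells go against the label, and they are described as low-immunoglobulin cells.

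The 22 cells of ntCZC het 3 also went against the label. Their median immunoglobulin content was 2.15% at 20159 UMIs per cell, all 22 carried Ms4a1 and were called IgM, and none carried Sdc1 (syndecan-1) or Tnfrsf17 (BCMA, a survival receptor of plasma cells). Jchain was at 431 CPM in them, against 26297 CPM in tissue cells with at least 10% immunoglobulin. Xbp1 was at 50.6 CPM against 905 CPM. Mki67 was at 0 CPM, and cycling calls fell from 90.9% of cells to 9.09% when each cell was thinned to 1000 UMIs. They share the rule's genes but not the plasma cell expression seen in tissue, so the rest of the text is about tissue.

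**Figure D2:**
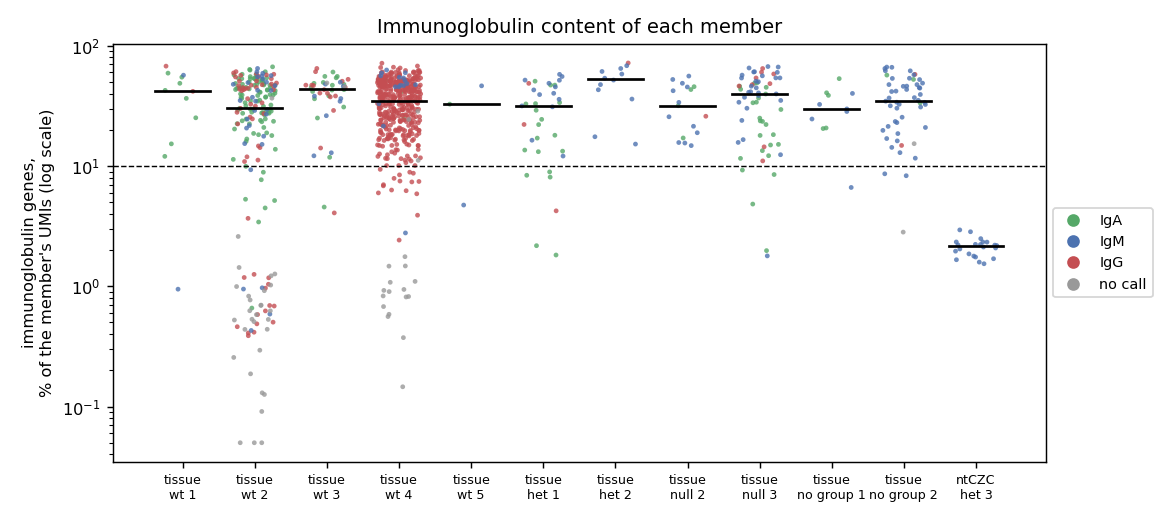
Percentage of UMIs from immunoglobulin genes (log axis) in each cell that met the rule by library, with a bar at the library median and a dashed line at 10%. The lowest points are drawn at the axis floor and the PBMC cell is not shown. Most tissue cells lie above the line, while the 22 cells of ntCZC het 3 have a median of 2.15%.

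At the edges of the rule, the 103 cells with Jchain at 2 UMIs had a median immunoglobulin content of 0.475% and the 39 just inside, at 3 UMIs, 1.47%. The 118 cells with 1 other marker had a median of 1.95%, and the 237 with 2 markers 26.7%. A further 115 cells failed only on Cd3e or C1qa and had a median of 25.1%. Jchain was also found in barcodes with T cell or endothelial transcripts, where free RNA and doublets cannot be told apart. At least 3 Jchain UMIs were held by 0.235% of 5958 T cell barcodes and 0.149% of 16064 endothelial barcodes. In the same sets 0.117% and 0.0934% also met the rule's condition on the other markers. The T cell barcodes hold no plasma cells by the rule, but the endothelial barcodes were not cleared of plasma cells. In wt 4, for example, 1699 of its 1704 endothelial barcodes were not plasma cells. Scrublet, a doublet caller, marked 11 of the 12 cells of wt 1, 41 of 216 in wt 2 and 65 of 460 in wt 4, and these were kept. Among all passing barcodes it marked 496 of 5941 in wt 1, 3883 of 18242 in wt 2 and 2961 of 13067 in wt 4. The highest scores were marked, up to a rate set at 0.8% per 1000 barcodes. Across libraries, 37 member barcodes recurred in another library, and 0 were plasma cells in more than 1.

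The antibody class differed widely between libraries. Of the 928 tissue cells, 187 were IgA, 176 IgM and 512 IgG, and 53 had no call, where a call needed at least 10 heavy chain constant UMIs with at least 70% from 1 class. The IgA share of called cells in wt 1 to 4 was 66.7%, 53.8%, 43.2% and 0.680%. It was 52.8% and 0% in the het libraries, 23.5% and 39.7% in the null libraries, and 45.5% and 3 of 50 cells in the libraries without a group. IgM made up 91.7% of het 2, 70.6% of null 2 and 45 of 50 called cells of the second library without a group, so these 3 were mainly IgM. IgG made up 95.7% of wt 4, with 422 of its 441 called cells, against 0 to 36.4% in the other 9 libraries with at least 10 calls. Light chains were kappa in 899 of 915 called cells.

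**Figure D3:**
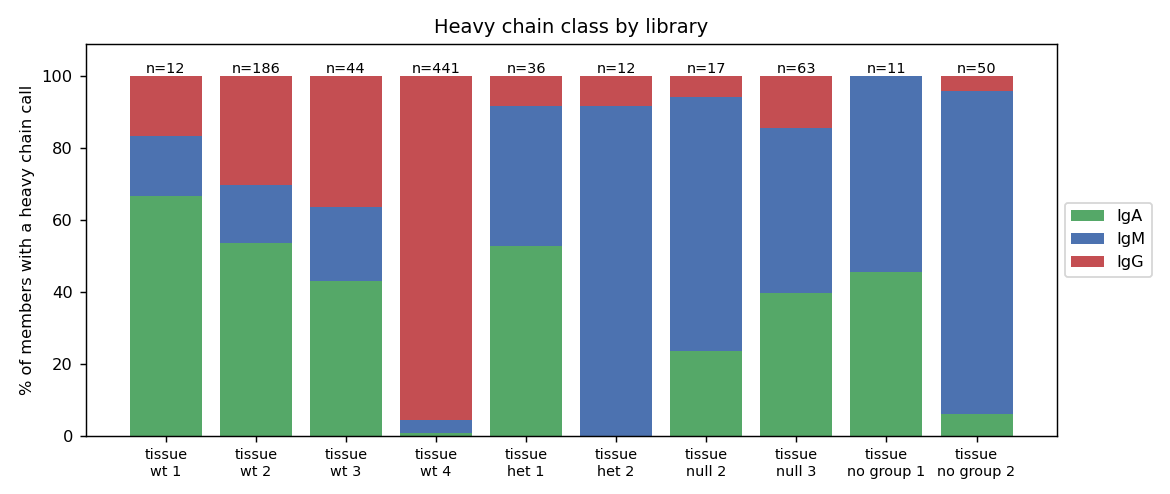
Share of called plasma cells (percent, stacked bars from 0 to 100) in each heavy chain class for the 10 tissue libraries with at least 10 calls. IgG fills 95.7% of wt 4, and IgM fills 91.7% of het 2 and 45 of 50 called cells of the second library without a group.

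The IgG of wt 4 was nearly all of 1 subclass and carried 1 leading heavy chain variable gene. Ighg2c, the IgG2c constant region, led in 416 of its 422 IgG cells, whereas in the other tissue libraries Ighg2b led in 55 of 90, Ighg2c in 18, Ighg1 in 16 and Ighg3 in 1. Pooled Ighg2c in wt 1 to 4 was 15.7, 4594, 5613 and 61708 CPM. In null 3 it was 11236 CPM, and Ighg2c led in 6 of the 9 IgG cells of that library. The het libraries, null 2 and those without a group held at most 34.9 CPM. Variable genes lie far from the 3′ end that the chemistry reads, so a leading heavy V gene could be called in only 218 tissue cells, over 51 genes. Ighv1-12 led in 80 of the 87 called cells of wt 4 and in 0 cells elsewhere. The next genes were spread over libraries, with Ighv1-53 in 11 cells of 5 libraries and Ighv1-55 in 8 cells of 4, while Ighv4-1, Ighv5-4 and Ighv6-3 each led in 7. In wt 2, the next largest library, 61 called cells used 34 genes, and the most used, Ighv5-4, led in 5. The light chain gene Igkv3-10 had UMIs in 306 of the 422 IgG cells of wt 4, or 72.5%, and Iglv1 in 324. Iglv1 led in 148 and Igkv3-10 in 48 of the 215 cells of wt 4 with a leading light V gene, and in 33 and 16 of the 56 cells with both V genes called they stood with Ighv1-12. By constant region these IgG cells were kappa, with a median of 912 UMIs of Igkc and 2 of Iglc1, and Iglv1 UMIs were also in 35 of 56 IgG cells of wt 2, so Iglv1 was not read as a lambda chain. Antibody transcripts in other barcodes of wt 4 bear on these values differently. Ighg2c was found in 96.7% of its plasma cells but also in 54.9% of its T cell barcodes and 48.6% of its endothelial barcodes, whereas Ighv1-12 was found in 253 of 460 plasma cells, 0.313% of T cell barcodes and 0.353% of endothelial barcodes. Whether the cells of wt 4 share 1 rearrangement was not tested, since the files hold gene counts and no junctions.

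Ighv1-12 is shown because it marks the IgG cells of wt 4. Its germline V exon lies on GRCm38 at chr12:114615850-114616143 on the minus strand (GENCODE vM21), 294 bases long, and is printed 5′ to 3′ with capitals at the 34 bases that differ from Ighv1-15. Of 112 other Ighv genes compared, Ighv1-15 and Ighv1-23 were equally near, each 88.4% identical. Reads of such close genes can be split or lost in counting.
Ighv1-12: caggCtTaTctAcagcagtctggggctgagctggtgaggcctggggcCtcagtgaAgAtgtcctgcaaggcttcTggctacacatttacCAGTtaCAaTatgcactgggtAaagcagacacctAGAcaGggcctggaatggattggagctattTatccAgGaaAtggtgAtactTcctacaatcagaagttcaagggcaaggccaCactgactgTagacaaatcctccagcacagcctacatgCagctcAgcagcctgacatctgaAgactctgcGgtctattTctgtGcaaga

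Cells of the 3 classes also differed in rule genes, given here as a description. Outside wt 4, Tnfrsf17 UMIs were found in 50.5% of 184 IgA cells, 15.0% of 160 IgM cells and 10.0% of 90 IgG cells, and in 0.711% of the 422 IgG cells of wt 4. The median Jchain count was 284 UMIs in IgA cells, 53.5 in IgM cells and 71 in IgG cells, and 28 in the IgG cells of wt 4. Sdc1 was found in 54.3%, 40.6% and 45.6% of these cells, and in 17.8% of the IgG cells of wt 4. The IgG cells of wt 4 thus had the lowest values of all 3 genes among these groups, at a median of 3917 UMIs per cell against 7495 in other IgG cells. Outside wt 4, IgA cells had a median of 7008.5 UMIs and IgM cells 4019. Of the 184 IgA cells 100 came from wt 2, and of the 160 IgM cells 45 came from the second library without a group. The part of depth and library in these values was not tested.

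Plasma cells were then set beside the 8269 B cells of the tissue libraries, barcodes with Cd79a and a further B cell gene such as Ms4a1 or Ighd that did not meet the rule. Values are means over the 10 tissue libraries with at least 10 plasma cells, in CPM of all UMIs, and since the rule chose the cells no test was made. Immunoglobulin took 35.5% ± 8.17 of plasma cell UMIs (SD, n = 10, range 26.0 to 53.8%) and 0.855% ± 0.358 of B cell UMIs. This lowers the CPM of every other gene, and the median log2 ratio of 8655 genes was -0.85, with 1030 genes higher (11.9%) and 7625 lower (88.1%). With immunoglobulin left out of the totals, a scaling chosen after seeing the data, the median was -0.24.

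Genes of the secretory pathway stood apart from this shift. Of 25 ER folding and unfolded protein response genes, 24 (the rule gene Derl3 among them) were higher in plasma cells with a median log2 ratio of 1.86, and 19 were higher in every library, against 1.65% of all genes. Hsp90b1 (GRP94), an ER chaperone, was at 3997 ± 2188 CPM in plasma cells and 523 ± 90.04 CPM in B cells. Hspa5 (BiP), the chaperone that senses unfolded protein, was at 1445 ± 572 against 485 ± 91.9 CPM. Creld2, an ER stress gene, was at 378 ± 184 against 29.9 ± 8.64 CPM. The protein disulfide isomerases Txndc5 and Pdia4 were at 804 and 653 CPM against 83.1 and 74.1 CPM. Canx (calnexin, a glycoprotein chaperone) was the exception at -0.06, and all 25 were higher with immunoglobulin left out of the totals. Of 30 translocation and secretory transport genes, 25 were higher, with a median of 1.29 and 17 in every library. Among these, Ssr4, a subunit of the complex beside the ER translocon, was at 1598 against 217 CPM, and Sec11c, of the signal peptidase, at 1073 against 170 CPM. Sec62, Srp14, Srp54a, Copb1 and Mcfd2 were lower on this scale, and all 30 were higher with immunoglobulin left out of the totals.

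**Figure D4:**
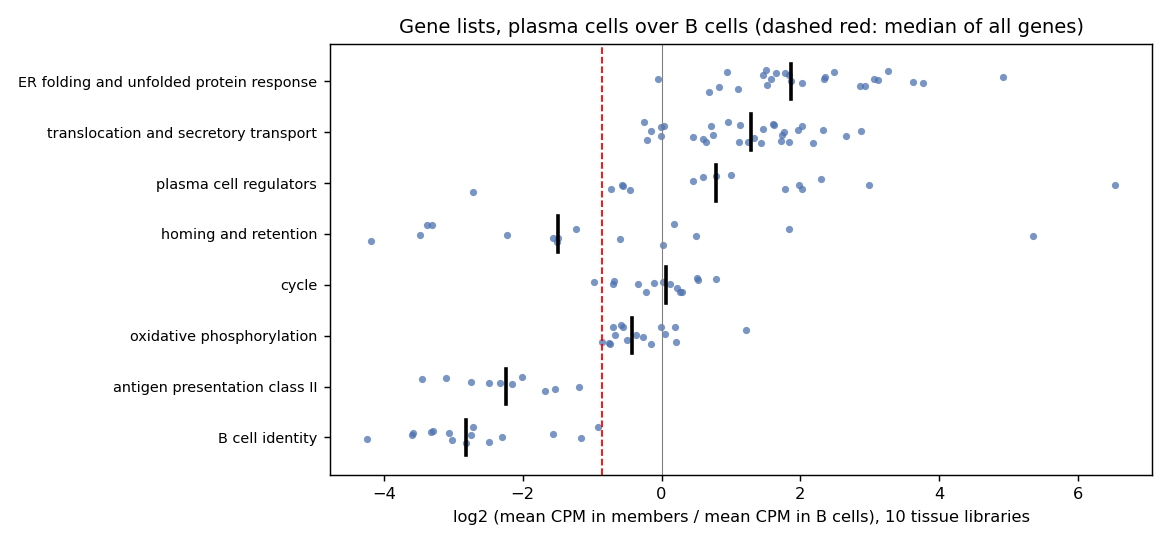
Log2 ratio of mean CPM in plasma cells over B cells for each gene of 8 lists (points), with a black bar at each list's median and a dashed red line at the median of all genes, -0.85. ER folding and translocation genes lie to the high side at medians of 1.86 and 1.29, and B cell identity and class II genes to the low side at -2.82 and -2.24.

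B cell genes moved the other way. All 15 B cell identity genes were lower, with a median of -2.82, and 14 were lower in every library, against 32.4% of all genes. The B cells were themselves chosen on Cd79a and genes such as Ms4a1, which belong to this list, so its direction is fixed in part by that choice. Of the genes not used to choose them, Pax5, the factor that holds B cell identity, had a log2 ratio of -3.59 and Cr2, a complement receptor, -4.24. All 10 class II antigen presentation genes were lower in every library, with a median of -2.24, and Cd74, the invariant chain, was at -1.19. With immunoglobulin left out of the totals both lists stayed wholly lower, with medians of -2.25 and -1.67. Without wt 4, the ER folding list had a median of 1.85 and the identity list -2.86. The oxidative phosphorylation list depended on the scale, with 4 of 16 genes higher at a median of -0.43, and 11 of 16 higher at 0.16 with immunoglobulin left out. Among 15 homing genes 5 were higher, with a median of -1.49. Ccr7, a receptor that guides entry into lymph nodes, was at -3.48, while Ccr10, the receptor that draws IgA cells to mucosa, was at 49.0 against 0.22 CPM and higher in 8 of 10 libraries. The cell cycle list had 8 of 14 higher and a median of 0.07, and the 110 low-immunoglobulin cells differed from the rest in it. Pooled over tissue, they were above B cells for 14 of 14 genes, while the 818 high-immunoglobulin cells were below B cells for 13 of 14. Top2a, a topoisomerase of dividing cells, was at 430 CPM in the low cells, 54.9 CPM in the high cells and 106 CPM in B cells. In the interferon list 3 of 13 were higher, with a median of -1.04.

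Among genes that were neither rule genes nor immunoglobulin and had at least 100 CPM, Prg2 had the highest ratio over B cells. In wt 1 to 4 it was at 193, 140, 114 and 418 CPM, in the het libraries at 201 and 384, in the null libraries at 454 and 128, and in the libraries without a group at 304 and 337. The B cell mean was 1.42 CPM, a ratio of 189, and Prg2 was higher in 10 of 10 libraries. Slpi, a secreted inhibitor of serine proteases made at mucosal surfaces, was next and far more uneven. It was at 7493, 15571, 8081 and 20947 CPM in wt 1 to 4, at 7973 and 6000 in the het libraries, at 384 and 4612 in the null libraries, and at 16.0 and 1337 in those without a group. B cells held 237 ± 148 CPM of Slpi, so the ratio held in 9 of 10 libraries, and the range over libraries was greater than for Prg2. Fkbp11, a prolyl isomerase of the secretory pathway, had a log2 ratio of 3.77, Eaf2, an elongation factor partner, 3.50, and Trp53inp1, a p53-induced stress gene, 3.17. Edem1, Edem2, Prdx4, Sdf2l1 and Ckap4, which act in ER quality control, redox folding or ER structure, were at 3.07, 3.04, 2.99, 2.85 and 2.78. Ly6c2, a surface protein, stood at 2.98 and Fam214a and Cacna1s at 2.84 and 2.79, all 3 higher in 10 of 10 libraries. Ccl7, a chemokine, reached 3.41 but was higher in only 3 of 10. At the low end, the stomach genes Pgc and Tff2 had ratios of -5.48 and -5.01, but B cell barcodes of 1 library held up to 3752 and 5434 CPM of them. Satb1, a chromatin organiser, was at -4.01 and lower in 10 of 10.

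Tnfrsf17, a rule gene, varied most between libraries among the rule genes that follow. It was at 94.1, 35.1, 52.2 and 3.59 CPM in wt 1 to 4, at 289 and 81.6 in the het libraries, at 140 and 224 in the null libraries, and at 192 and 56.2 in those without a group. Xbp1, by contrast, stayed between 595 and 1484 CPM, with a mean of 902 ± 258 (SD, n = 10) against 112 CPM in B cells. Jchain ran from 9861 CPM in wt 4 to 43568 in wt 1.

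The ER list was set beside promoter sequence to show a feature of its genes. The ER stress response element was searched as CCAAT, then 9 bases of any kind, then CCACG, on both strands, from 250 bases before to 50 after each start, in RefSeq promoters on GRCm38.p6. It occurred in 39 of 32851 promoters, or 0.119%, and in 10 of 30 promoters of the ER list, or 33.3%. The list was drawn up as genes of ER folding and the unfolded protein response, the response this element is named for. Its share therefore describes the list and is no result about these cells. The element occurred in 0 of 26 translocation, 0 of 14 B cell identity and 0 of 8 class II promoters. Derl3, a rule gene, is counted in the ER list. The motif is shown for 5 genes that were higher in plasma cells and for Canx, 5′ to 3′ along the motif, with its fixed letters in capitals. The sites lie at chr2:34772025-34772043 for Hspa5 and chr12:17266491-17266509 for Pdia6 on the plus strand, and at chr10:86705638-86705656 for Hsp90b1, chr15:88819520-88819538 for Creld2, chr10:75893242-75893260 for Derl3 and chr11:50325800-50325818 for Canx on the minus strand. Pdia6 (a disulfide isomerase) had a log2 ratio of 1.65.
Hspa5: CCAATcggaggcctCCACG
Hsp90b1: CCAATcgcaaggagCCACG
Creld2: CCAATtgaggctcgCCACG
Pdia6: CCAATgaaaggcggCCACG
Derl3: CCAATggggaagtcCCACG
Canx: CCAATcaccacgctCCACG
Canx holds the element at a log2 ratio of -0.06 on the scale of all UMIs, against 2.93 for Hsp90b1. A match is a run of letters, and binding was not measured.

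IgA and IgM plasma cells were compared within libraries, in the 3 with at least 10 cells of both (wt 2, het 1 and null 3). Jchain and the heavy chain constant genes, which set the classes, were left out of the tested genes. The edgeR quasi-likelihood test with library as block called 0 of 1628 genes, a background of 0.0%, with 93 at an unadjusted p under 0.05 and 5 by DESeq2. The genes given here were chosen after their values were seen. Tnfrsf17 was at 85.2, 549 and 480 CPM in IgA cells of wt 2, het 1 and null 3 and at 9.05, 20.9 and 93.5 CPM in their IgM cells. As a rule gene it is given as a description. Klf2, a factor of lymphocyte trafficking, was at 165, 618 and 403 CPM against 63.3, 83.6 and 37.4 CPM, a log2 difference of 2.31 (SE 0.37, edgeR adjusted p = 0.182). The subunits of the gut-homing integrin α4β7 had the same order. Itga4 was at 204, 1043 and 595 CPM against 131, 209 and 74.8 CPM (log2 1.76, SE 0.38, edgeR adjusted p = 0.399). Itgb7 was at 78.2, 185 and 211 CPM against 31.7, 83.6 and 9.35 CPM (log2 1.73, SE 0.53, edgeR adjusted p = 0.812). All 4 had higher values in IgA cells of all 3 libraries, and no gene of the fit passed the threshold. Over all 1628 genes, 783 had a positive log2 difference. How many of them were higher in all 3 libraries is not given, so this agreement has no background. Prg2 had the opposite order, at 195, 96.1 and 67.2 CPM in IgA cells and 326, 429 and 159 CPM in IgM cells (log2 -1.39, edgeR adjusted p = 0.812). Slpi had a log2 difference of 3.29 (SE 1.26, edgeR adjusted p = 0.812) and was higher in 2 of 3 libraries.

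With at least 5 cells of both classes, a limit chosen after seeing the data, 5 libraries entered and again 0 genes passed, of 1649. Itga4 and Itgb7 then had higher values in IgA cells of 5 of 5 libraries, at log2 differences of 1.49 and 1.83, and Klf2 in 4 of 5 at 2.17. No background count over all genes is given for this agreement either. Of the 25 ER folding genes 18 had higher values in IgA cells in the 3-library fit, with a median of 0.32 against -0.02 over all genes. All 5 class II genes tested had lower values, with a median of -0.65. In null 3 the IgM cells held Gpx5 and Defb20, transcripts of epididymal epithelium, at 7427 and 4350 CPM against 202 and 115 CPM in its IgA cells. The part of such RNA in the IgA to IgM differences was not tested.

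**Figure D5:**
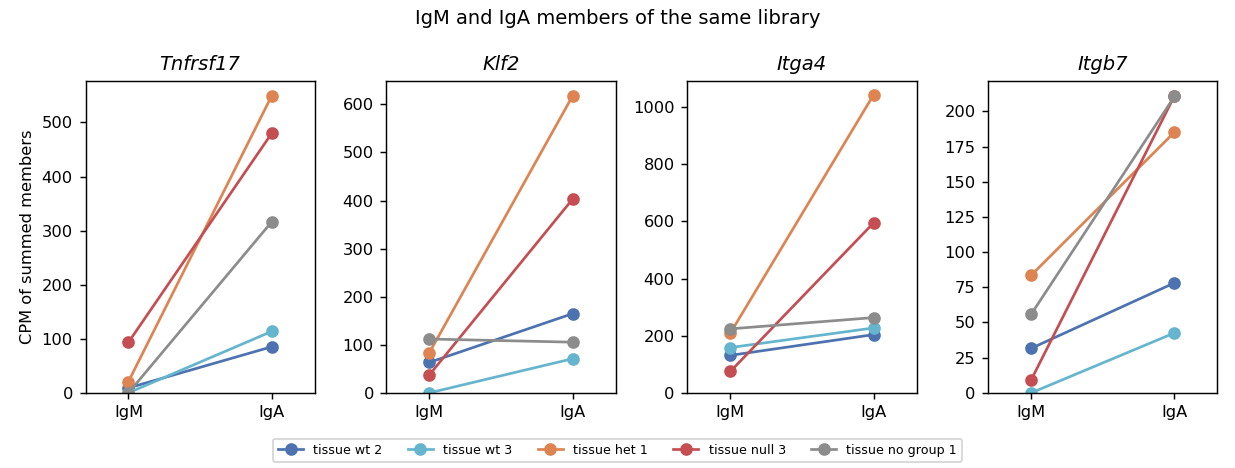
CPM of Tnfrsf17, Klf2, Itga4 and Itgb7 in IgM and IgA plasma cells of the same library, joined by lines, for the 5 libraries with at least 5 cells of both classes. Lines rise from IgM to IgA in 5 of 5 libraries for Tnfrsf17, Itga4 and Itgb7 and in 4 of 5 for Klf2. The genes were chosen after their values were seen, and no gene of the fit passed the adjusted threshold.

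The question of the genotype comparison was whether loss of Nalcn went with a change in plasma cells. The share of passing barcodes was 1.35% ± 1.27 in wt (SD, n = 5) and 0.411% ± 0.211 over het and null libraries together (n = 4). The difference of -0.943 percentage points did not pass an exact two-sided permutation test (p = 0.0794, adjusted 0.238 over 6 comparisons, smallest possible p 0.0159). The het mean was 0.388% ± 0.130 and the null mean 0.434% ± 0.338, so the groups overlapped, with 3 of the 4 deleted libraries inside the wt range and null 2 just below it. Without wt 1 the difference was -1.23 (exact permutation p = 0.0286), without wt 4 it was -0.402 (exact permutation p = 0.143), and with IgG cells left out, a choice made after seeing the data, -0.215 (exact permutation p = 0.349). The difference was smallest without the IgG cells, most of which came from wt 4. The denominator holds every cell of the pooled organs, so the share also moves with the mix of organs. The wt mice were 571 to 654 days old, the het mice 551 days and the null mice 552 and 611 days. Age thus differed between genotypes in every genotype comparison here, and its part was not tested.

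As a share of the B lineage (plasma cells plus B cells), plasma cells made up 2.53%, 10.7%, 11.6%, 16.4% and 12.0% in wt 1 to 5, 4.17% and 4.21% in het, and 4.51% and 12.2% in null libraries. The groups overlapped, at 10.6% ± 5.04 in wt (n = 5) and 6.27% ± 3.96 in deleted libraries (n = 4; exact permutation p = 0.270, adjusted 0.405). The libraries without a group, which carry a sex label, held 3.07% (male) and 4.87% (female). By labelled sex, the libraries with a group did not overlap. Their 3 female libraries, wt 4, wt 5 and null 3, held 12.0 to 16.4% (mean 13.5% ± 2.47) and the 6 male libraries 2.53 to 11.6% (mean 6.29% ± 3.84). The lowest female value, 12.0% in wt 5, rests on 3 plasma cells and 22 B cells. With at least 3 of the 6 other markers required, wt 5 held 8.33% and the male wt 3 held 9.59%, so the sexes overlapped. In the reported setting the difference of 7.24 points had an exact two-sided permutation p of 0.0238, the smallest that 3 against 6 allows. The adjusted p was 0.143. With the libraries without a group entered, a choice made after seeing the data, the sexes overlapped and the difference was 5.54 (4 female, 7 male libraries, exact permutation p = 0.0364, smallest possible 0.00606). Leaving out wt 4, wt 5 or null 3 gave 5.82, 8.01 and 7.90, where 2 against 6 libraries cannot go below an exact permutation p of 0.0714, the value each gave. By the study's design female pools held uterus and male pools epididymis, and the female mice were 611 to 654 days old and the male mice 551 to 608 days, so sex, organ and age cannot be told apart. Null 3 carries the mixed Xist and Y-linked signal given above, and its plasma cells held the epididymal transcripts Gpx5 and Defb20 at 2909 and 1724 CPM, against 0 CPM of both in wt 4. The share of passing barcodes was 1.75% ± 1.55 in females (n = 3) and 0.530% ± 0.397 in males (n = 6; exact permutation p = 0.119, adjusted 0.238). The difference of 1.22 points was 0.329 without wt 4 (exact permutation p = 0.357) and 0.9005 with the libraries without a group entered (exact permutation p = 0.182).

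The IgA share was 41.1% ± 28.6 in wt (n = 4) and 29.0% ± 22.7 in deleted libraries (n = 4; exact permutation p = 0.457, adjusted 0.457), and with at least 3 of the 6 markers required, which left only het 1 and null 3 as deleted libraries, the difference was 4.59 in the other direction. By sex it was 20.2% ± 27.6 in females (n = 2) and 39.99% ± 24.3 in males (n = 6; exact permutation p = 0.357, adjusted 0.429, smallest possible 0.0714), a difference of -19.8 points that was -25.3 with the libraries without a group entered (3 female, 7 male, exact permutation p = 0.15). The other 2 classes were not tested. In libraries with at least 10 calls their shares did not overlap by genotype. Wt 5, left out with 3 calls, was 66.7% IgM and 0% IgG, and het 2 and null 2 rest on 12 and 17 calls. Class shares of a library sum to a fixed total, so they do not vary independently. For 4 against 4 libraries the smallest exact two-sided permutation p is 0.0286. IgM was 3.63 to 20.5% in wt 1 to 4 and 38.9 to 91.7% in deleted libraries. IgG was 16.7 to 95.7% in wt 1 to 4 and 5.88 to 14.3% in deleted libraries.

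Expression by genotype was tested on counts summed per library in wt 1 to 4, het 1 and 2, and null 2 and 3, with labelled sex as a term. No gene of 2847 passed for deleted against wt (a background of 0.0%), with 124 at an unadjusted edgeR p under 0.05 and 8 by DESeq2. For null against wt 0 of 2847 passed (0.0%), with 96 at an unadjusted p and 2 by DESeq2. The libraries of the 2 groups did not overlap for 70 genes (2.46%), 38 of them lower in deleted libraries (1.33%). For 4 against 4 libraries the smallest exact two-sided permutation p is 0.0286, so a share of 2.46% is near what random labels give. Ighm, the IgM heavy chain, was 1 of the 70 and was higher in deleted libraries. It was at 22845, 11045, 18396 and 7244 CPM in wt 1 to 4, at 45086 and 136000 in het, and at 96203 and 65660 in null libraries. All 4 deleted libraries lay above all 4 wt libraries, and the log2 difference was 2.67 (SE 0.65, edgeR adjusted p = 0.646). The share of IgM cells among called cells did not overlap either. It was 16.7%, 16.1%, 20.5% and 3.63% in wt 1 to 4, 38.9% and 91.7% in het, and 70.6% and 46.0% in null libraries. Wt 5, outside the fit, had 66.7% from 3 calls. The part of this class mix in the Ighm difference was not tested. Slpi had a log2 difference of -1.92 (SE 0.51, edgeR adjusted p = 0.691) and Cxcl2, a neutrophil chemokine, -3.24 (SE 0.54, edgeR adjusted p = 0.174). Cxcl2 came nearest the threshold of the genes named here, and these 3 were chosen after their values were seen.

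The secretory lists had medians above that of all genes (-0.07) for deleted against wt and below it (-0.08) for null against wt. None of their genes passed. The 25 ER folding genes had a median of 0.09 for deleted against wt, with 17 higher and 8 lower, and of -0.32 for null against wt, with 6 higher and 19 lower. For the 30 translocation genes the medians were 0.12, with 20 higher and 10 lower, and -0.26, with 6 higher and 24 lower. Over all 2847 genes, 1226 were higher and 1621 lower for deleted against wt, and 1280 and 1567 for null against wt. Hspa5 had a log2 difference of -0.06 for deleted against wt. All 7 cell cycle genes tested had lower values in deleted libraries, with a median of -0.82, and none passed. The 7 B cell identity genes tested had a median of -0.76. The low-immunoglobulin cells, with their cycling genes and Ms4a1, numbered 1, 58, 2 and 33 in wt 1 to 4, 6 and 0 in het, and 0 and 5 in null libraries. These counts overlap between genotypes, and the part of these cells in the lists was not tested. RNA of other cell types in plasma cells also differed between libraries. The summed level of 5 neutrophil markers was 36.6 to 1253 CPM in wt, 13.6 to 23.3 CPM in het, where Retnlg, Cxcr2 and Mmp9 were at 0, and 140 to 255 CPM in null libraries. The 3 of them tested had lower values in deleted than in wt libraries, with a median log2 difference of -2.97, beside -3.24 for Cxcl2. Macrophage and monocyte markers summed to 266 to 1453 CPM in wt, 23.3 to 88.5 CPM in het and 1068 to 1083 CPM in null libraries, with C1qa at 0 by the rule. Red cell markers summed to 225 to 7446 CPM in wt, 46.6 to 184 CPM in het and 174 to 2760 CPM in null libraries. The 7 epididymal epithelium markers summed to 0.512 to 427 CPM in wt, 105 to 119 CPM in het, inside the wt range, and 803 to 5875 CPM in null libraries, with Cst8 at 0 in wt and het. The part of such RNA in the gene differences was not tested.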

How the data were processed

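Gene counts of unique molecules per barcode were deposited by the authors, who aligned Chromium Single Cell 3′ v3 reads to mm10. Submitters' notes name Cell Ranger 2.1.1 and the matrix headers 3.0.2. The deposited counts were used as given, with no ambient correction, and doublets were marked with scanpy's Scrublet but kept. Members and gene lists were chosen with earlier results of these data known. Genes named without a list were those with the 20 highest and 10 lowest plasma to B cell ratios at 100 CPM or more, some of which are given, and the most frequent leading V genes. Genes named in the genotype and class tests, where 0 passed, were chosen after their values were seen.

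Shares were compared over libraries by exact permutation with Benjamini-Hochberg adjustment over 6 tests. Counts were summed per library (at least 10 members) and tested with edgeR 4.0.16 (TMM, filterByExpr, quasi-likelihood, threshold 0.05), with DESeq2 1.42.0 as an alternative, after a check on simulated data. Over 12 pairs of replicate tissue libraries the chi-square per degree of freedom was at least 27.9, so none was a repeat deposit. Wt 5 entered no expression fit. Comparisons of IgG with IgA or IgM were left out, since only 2 libraries held at least 10 cells of both classes. Other limits were a V call at 3 UMIs and 50%, cycling at 2 UMIs, and thinning to 1000 UMIs. Python 3.11.15, scanpy 1.11.5, scipy 1.17.1 and R 4.3.3 were used. A few genes are not reported here.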

Additional observations from a re-analysis of the deposited data

Results flagged for a closer look

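In 3 of the 22 groups tested, 1 library lay far from the others of its group (Dixon's test at 95%, which chance passes in about 1 group of 20). In the ntCZC het libraries, het 3 had a plasma cell share of 13.7% of passing barcodes and 29.7% of the B lineage, and the other 3 libraries of that group had 0, so any count above 0 would pass this test. These 22 cells had the low immunoglobulin content and the Ms4a1 described above. In the wt tissue libraries, plasma cells of wt 4 held 61708 CPM of Ighg2c, against 15.7 to 5613 CPM in the other 3.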

How the results depend on the processing

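Of the recomputed values, 115 kept their direction and side of the threshold or stayed within 1.5 times, and 26 counts moved further. Genes called were 0 for deleted against wt in the reported fit, but 1 with Jchain at 10 or more UMIs, 7 with at least 3 markers, 8 with DESeq2, 54 with no filter on low counts and 41 in libraries of at least 20 cells. Null against wt gave 1, 21, 2, 40 and 46 under the same settings and 1 with cells of at least 10% immunoglobulin. With at least 3 markers or at least 20 cells the het arm was het 1 alone and the null arm null 3 alone, as was the null arm without null 2. A lone library is assumed to vary like the other groups, and null 3 has the mixed Xist and Y-linked signal, so these counts describe those libraries and not a genotype. IgA against IgM gave 5 with DESeq2 and 54 with no filter. The replicate block gave 52 for deleted and 23 for null against wt, but same-numbered libraries correlated at only -0.0949 to 0.0785 over 2847 genes, so the numbers do not pair them. Leaving out each library gave 0 to 7 genes (deleted; 7 without null 2), 0 to 13 (null; 13 without null 2) and 0 to 15 (IgA against IgM; 15 without wt 2). The cause was not tested. Leaving out each library, the difference in passing share ran from -1.23 to -0.402 (deleted) and 0.329 to 1.75 (female), in B lineage share from -6.40 to -2.93 and 5.82 to 8.31, and in IgA share from -25.5 to -2.41 and -27.8 to -14.5. The IgA difference of deleted libraries was 4.59 with at least 3 markers. Libraries of 12 to 17 plasma cells limit depth.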
